A study of Mus musculus with 2 samples.

Results

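The enzymes and cofactors that write, maintain and remove cytosine methylation in DNA were followed in mouse embryoid bodies given FGF10 and in embryoid bodies without it. The genes taken were Dnmt1, Dnmt3a, Dnmt3b, Dnmt3l, Tet1, Tet2, Tet3, Uhrf1, Hells and Tdg, and a probe set was used where the array's annotation gives it exactly 1 gene symbol and that symbol is one of these. This left 23 probe sets of 9 genes, out of 34945 probe sets of 18193 genes named in the same way. Tdg is absent from the values because its 3 probe sets are each annotated to 3 genes, Tdg and pseudogenes of it. Embryoid bodies are cell aggregates that start the differentiation of embryonic stem cells, and they were made here in hanging drops from CGR8, an embryonic stem cell line of mouse strain 129 kept in LIF medium without feeder cells. The FGF10 sample had recombinant FGF10, a secreted fibroblast growth factor, at 100 ng/ml in its differentiation medium, and the control sample had the differentiation medium with no added agent. The labels place both RNA samples at day 2, while the series' design text places them 24 h after treatment of embryoid bodies already 2 days old. Each sample was read on 1 Affymetrix expression array, so no replicate error exists, no p-value is given and every ratio describes this pair of arrays.

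Cytosine methylation in mammals is laid down mostly at CpG, a cytosine followed by a guanine. DNMT3A and DNMT3B set it on unmethylated DNA, and DNMT3L, which has no catalytic activity of its own, binds them and stimulates them, chiefly in germ cells and in the early embryo. At replication UHRF1 recognises the hemimethylated CpG behind the fork and brings in DNMT1, which copies the mark, and HELLS is a chromatin remodeller that DNA methylation of repeats depends on. TET enzymes oxidise methylcytosine with 2-oxoglutarate and oxygen as substrates, and TDG excises oxidised forms so that base excision repair can restore cytosine. Naive embryonic stem cells held with kinase inhibitors have little DNA methylation, and the epiblast gains it around implantation, when Dnmt3b is strongly expressed.

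Promoter sequences from RefSeq on assembly GRCm38.p6, each with 250 bases before and 50 after an annotated start, were found for all 10 genes, in 17 windows. They are given for reference, since the arrays measured RNA and not methylation or binding. The first set is shown because Dnmt1, Uhrf1 and Hells serve the maintenance of methylation in replicating cells. Capitals mark matches, on either strand, to 4 forms of the motif of E2F, the transcription factor family of S-phase genes: TTTCCCGC, TTTGGCGC, TTTGCCGC and TTTCGCGC. No matches overlapped in these windows.
Dnmt1, chr9:20952574-20952873, minus strand: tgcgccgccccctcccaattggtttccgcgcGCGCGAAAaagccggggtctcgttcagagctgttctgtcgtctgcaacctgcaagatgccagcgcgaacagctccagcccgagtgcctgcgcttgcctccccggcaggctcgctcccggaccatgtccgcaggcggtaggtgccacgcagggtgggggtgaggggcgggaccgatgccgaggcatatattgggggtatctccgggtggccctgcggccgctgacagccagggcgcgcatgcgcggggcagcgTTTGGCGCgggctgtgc
Uhrf1, chr17:56304063-56304362, plus strand: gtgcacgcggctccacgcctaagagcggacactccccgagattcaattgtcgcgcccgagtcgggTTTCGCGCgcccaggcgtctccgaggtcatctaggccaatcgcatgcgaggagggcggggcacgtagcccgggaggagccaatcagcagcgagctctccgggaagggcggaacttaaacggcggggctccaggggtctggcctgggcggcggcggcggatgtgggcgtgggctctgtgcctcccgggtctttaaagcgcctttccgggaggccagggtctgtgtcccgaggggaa
Hells, chr19:38930740-38931039, plus strand: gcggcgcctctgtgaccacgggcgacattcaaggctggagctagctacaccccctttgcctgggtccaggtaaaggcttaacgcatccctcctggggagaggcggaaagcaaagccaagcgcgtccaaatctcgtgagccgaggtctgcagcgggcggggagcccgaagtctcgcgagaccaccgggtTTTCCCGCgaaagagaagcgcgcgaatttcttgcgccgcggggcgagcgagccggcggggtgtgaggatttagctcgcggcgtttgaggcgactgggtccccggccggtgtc
These are the 3 windows with a match among the 17, 1 start each of Dnmt1, Uhrf1 and Hells, and the Dnmt1 window holds 2 matches. Of all 32851 promoter windows, 2.26% held at least 1 match, so the letters are infrequent in windows of this length. All 4 forms contain CpG, and these windows hold 33, 33 and 34 CpGs against a median of 7 over all windows. The share among windows as rich in CpG was not computed. A match is a run of letters and not a measured binding site. The second set sets the gene with the largest ratio, Dnmt3l, beside Dnmt3b, and capitals mark each CpG.
Dnmt3l, chr10:78042037-78042336, plus strand: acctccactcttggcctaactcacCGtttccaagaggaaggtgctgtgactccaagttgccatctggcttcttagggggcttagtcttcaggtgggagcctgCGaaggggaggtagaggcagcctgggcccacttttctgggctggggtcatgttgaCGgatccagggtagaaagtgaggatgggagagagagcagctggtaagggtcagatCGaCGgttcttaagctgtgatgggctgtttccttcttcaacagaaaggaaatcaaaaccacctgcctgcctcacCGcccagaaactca
Dnmt3b, chr2:153649199-153649498, plus strand: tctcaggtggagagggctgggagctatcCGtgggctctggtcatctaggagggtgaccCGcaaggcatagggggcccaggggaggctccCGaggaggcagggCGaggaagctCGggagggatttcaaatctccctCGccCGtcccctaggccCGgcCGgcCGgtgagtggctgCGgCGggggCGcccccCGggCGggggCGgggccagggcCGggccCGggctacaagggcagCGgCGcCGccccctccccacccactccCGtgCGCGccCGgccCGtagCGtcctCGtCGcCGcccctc
The Dnmt3l window shown has 6 CpGs and the Dnmt3b window 30, against a median of 7 over all windows. The other Dnmt3l windows have 4 and 3 CpGs. Tet2 has the densest window of the 17, with 57 CpGs, and the Dnmt3a windows hold 46, 47 and 18.

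Values are MAS5 signals, a brightness per probe set on a linear scale, and a ratio is the log2 of FGF10 signal divided by control signal, after subtraction of the median over bright enough probe sets (0.034). Bright enough, or kept, means a mean signal of at least 76.35, the median over probe sets, and a gene takes the ratio of its brightest kept probe set. The median signal was 77.9 on the FGF10 array and 75.7 on the control array. Core pluripotency genes were bright on both, with Pou5f1 at 8787.2 on the FGF10 array against 8157.8 on the control array and Nanog at 7878.5 against 6616.1. Markers of the formative epiblast were present as well, with Otx2 at 5735.9 against 4866.7, Zic5 at 4690.8 against 2976 and Pou3f1 at 3192.2 against 4966.8. Of these 8 markers 3 passed 1.5-fold upward and 1, Pou3f1, downward. After loess normalization, explained below, and after quantile normalization, 2 passed upward and 0 downward. Trophoblast markers were near absent, with 7 of 8 under the filter (Krt7 had 103 against 117.7 and Hand1 64.9 against 73.4), and so were fibroblast markers, with 6 of 8 under it (Thy1 had 248.3 against 369.4 and Col1a2 120.5 against 136.8). The largest marker differences lay in the primitive streak list, where 10 of 10 genes were at least 1.5-fold higher with FGF10, among them Eomes (5783.5 against 1893.7) and Mixl1 (3570.6 against 238.2), and the summed signal was 17276.5 on the FGF10 array against 3735.4 on the control array. Cer1 (490.7 against 60.6) was kept through its FGF10 signal alone, so it had to come out higher. With signals under 76.35 raised to that value, the count stayed at 10. Visceral and primitive endoderm markers summed to 9243.7 against 12460.7, with 2 of 12 at least 1.5-fold higher and 6 lower, Dab2 having 2182 against 3214.9 and Ttr 2143.2 against 3244. After loess or quantile normalization 5 were lower, and after loess Dab2 (-0.53) and Ttr (-0.57) lay within 1.5-fold. Naive pluripotency markers summed to 2298.5 against 3148, with 0 of 9 measured genes higher and 3 lower, and the brightest were Zfp42 (873.9 against 1397.4) and Klf5 (381.3 against 452.8). The other kept probe set of Klf5 was higher with FGF10, at 0.69. Over all genes measured, 5.41% passed 1.5-fold upward and 4.86% downward. Whether these marker differences reflect cell makeup, and whether that enters the ratios below, was not tested.

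Of the 10 genes, 8 had a kept probe set, and most differed little between the arrays. Dnmt3l alone was at least 1.5-fold lower with FGF10, 0 genes were 1.5-fold higher, and the other 7 lay within 1.5-fold. Over all 11122 genes measured, 4.86% passed 1.5-fold downward and 5.41% upward, and 1 gene of 8 is too few to set the enzymes apart from that. The median ratio of the 8 genes was -0.28, against -0.027 for all genes measured. It was -0.013 when a gene took the average of its kept probe sets instead of the brightest, and -0.10 after loess normalization, which removes a trend of the ratio with brightness, and the genes then stood 4 above 0 and 4 below, where the signals as deposited gave 3 above and 5 below. Of the 20 kept probe sets, 1 was 1.5-fold lower and 0 were higher, against 4.48% and 6.68% of all kept probe sets with 1 gene. The spread between probe sets of one gene gives the only measure of error here: its SD was 0.267 over 5213 genes, 0.148 in the brightest 25% and 0.374 in the dimmest 25%. That SD reflects measurement on these 2 arrays alone, since no second culture was read. In bulk RNA, fewer cells that express a gene and less RNA per cell cannot be told apart.

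**Figure D1:**
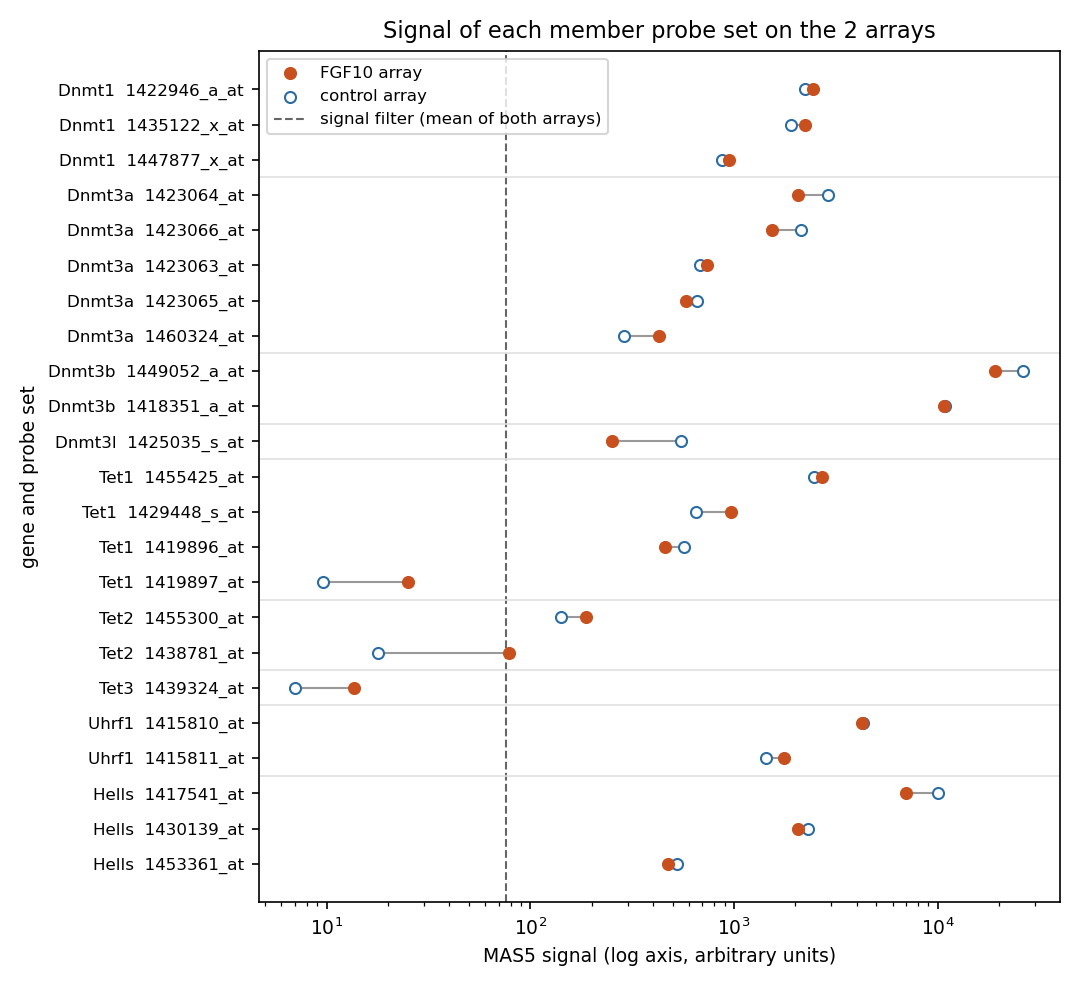
MAS5 signal (log axis, arbitrary units) of the 23 probe sets, with filled points for the FGF10 array, open points for the control array and a dashed line at 76.35. Dnmt3l stands furthest apart among the probe sets above the line, and the Tet1, Tet2 and Tet3 probe sets with wide gaps lie with their mean below it.

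Dnmt3l had a signal of 252.7 on the FGF10 array against 550.5 on the control array. This is a log2 ratio of -1.16, or 2.23-fold lower with FGF10, and 1.29% of all genes measured were at least 2-fold lower. Only 97 of 11122 genes had a lower ratio. Of the 1000 kept probe sets nearest to it in brightness, 10 were as low or lower, and the 5th to 95th percentiles of those 1000 ran from -0.51 to 0.64. The ratio was -1.22 after quantile normalization and -1.21 after loess. Dnmt3l is read by a single probe set of the _s_at type, whose probes can match more than 1 transcript, so no other probe set on the array checks it. Its 2 signals were above 76.35 on both arrays.

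Dnmt3a, one of the DNA methyltransferases that act on unmethylated sites, gave no single answer over its probe sets. The brightest, 1423064_at, had 2050.7 on the FGF10 array against 2877.1 on the control array, a ratio of -0.52. The next, 1423066_at, had 1541.2 against 2119.9, a ratio of -0.49. Both were lower with FGF10, by 1.44-fold and 1.41-fold. Of the 1000 kept probe sets nearest in brightness to each, 27 and 35 were as low or lower. The dimmer probe sets were spread on either side of 0. Probe set 1423065_at had 581.4 against 654.7 (-0.21) and 1423063_at had 732.8 against 683.2 (0.067). The dimmest, 1460324_at, was higher with FGF10, at 429.7 against 289.8 (0.53, or 1.45-fold). Of the 1000 nearest in brightness, 198 were as low as 1423065_at or lower. For 1423063_at 439 were as high or higher, and for 1460324_at 98 were. The annotation lists the same sequence record for all 5, and it does not say which transcript forms each reads. Loess and quantile normalization left the sign of each of the 5 as it was.

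The span of 1.06 between the lowest and the highest Dnmt3a ratio was wide, and more so against genes at least as bright. Of 199 genes with 5 kept probe sets, 30 (15.1%) had a span at least as wide, and the median span was 0.60. Probe sets disagreed in sign in 140 of the 199. Among the 37 of these genes whose dimmest probe set was at least as bright as that of Dnmt3a, 2 had a span as wide, Dnmt3a being counted, and the median was 0.42. The mean over its 5 probe sets was -0.12 with an SD of 0.44, so these arrays do not settle a direction for Dnmt3a.

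**Figure D2:**
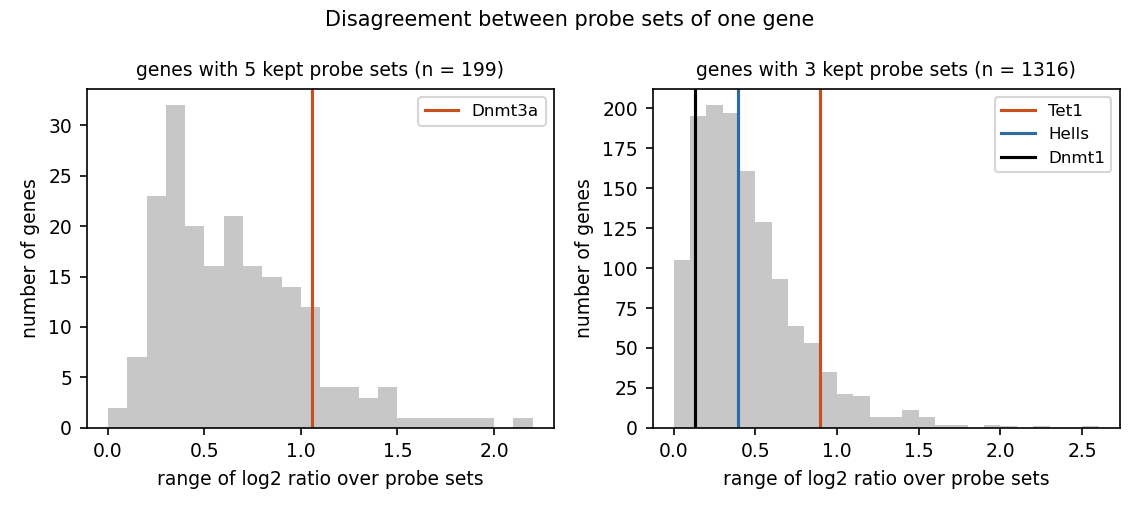
Number of genes (vertical axis, bins of 0.1) by the range of log2 ratio over a gene's kept probe sets, for 199 genes with 5 probe sets and 1316 genes with 3, with lines at the values of the named genes. Dnmt3a (1.06) and Tet1 (0.90) lie in the right-hand part of their distributions, while Dnmt1 (0.13) lies near the left end.

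Dnmt3b, another active enzyme of that kind, had very bright signals on both arrays. Its probe set 1449052_a_at had 19016.6 with FGF10 against 26292.9 in the control, a ratio of -0.50. The second probe set, 1418351_a_at, had 10786.1 against 10833, a ratio of -0.041, so the lower reading stood on 1 of its 2 probe sets. Very bright probe sets in general were lower on the FGF10 array: the 1000 nearest in brightness to 1449052_a_at had a median of -0.22. Of those 1000, 19 were as low as 1449052_a_at or lower. For 1418351_a_at it was 752 of its nearest 1000. After loess normalization the 2 Dnmt3b ratios were -0.25 and 0.14, and after quantile normalization -0.22 and 0.11. The sign of the second probe set therefore depended on the scaling, and the first ratio was smaller in size under both.

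**Figure D3:**
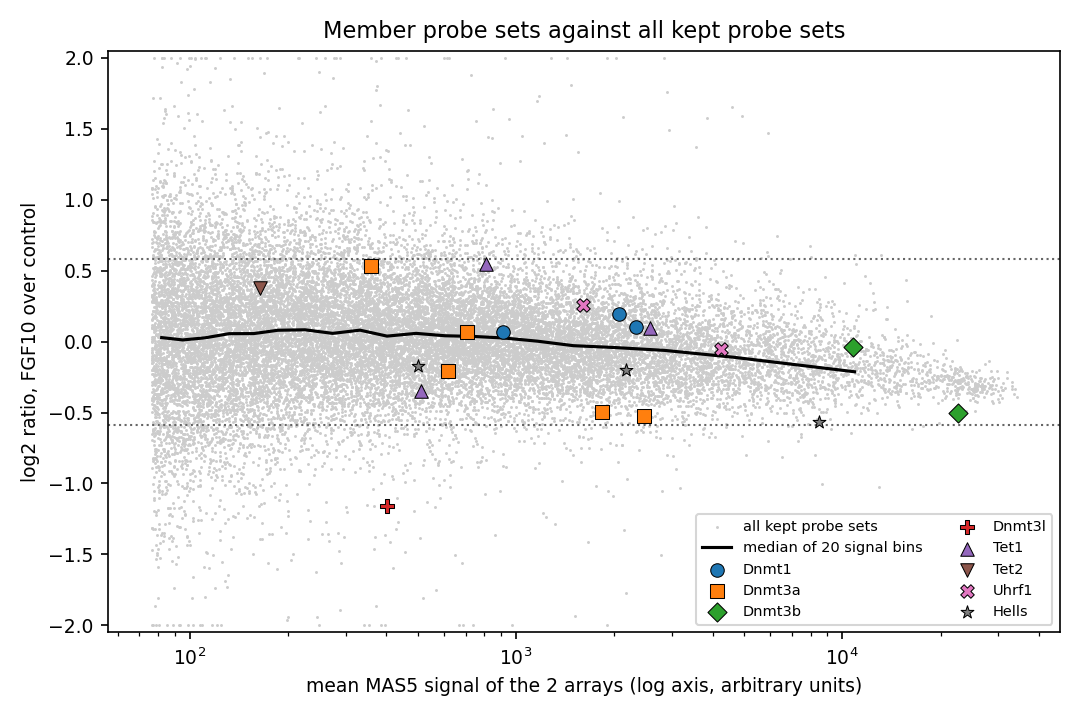
Log2 ratio of FGF10 over control against the mean MAS5 signal (log axis) for all kept probe sets in grey, held at 2 and -2 where they lie beyond, with the median in 20 signal bins as a line, dotted lines at 1.5-fold and 1 symbol per gene. The line falls below 0 at high signal, where both Dnmt3b probe sets and the brightest Hells probe set lie, and Dnmt3l is the 1 symbol beyond the dotted lines.

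Dnmt1, the maintenance methyltransferase, was close to equal on the arrays. Its probe sets had 2445.9 with FGF10 against 2223.2 in the control, 2235.5 against 1904.4, and 941.3 against 876.3. All 3 were slightly higher with FGF10, with ratios of 0.10, 0.20 and 0.069, and their span of 0.13 was narrow: 88.5% of the 1316 genes with 3 kept probe sets had one at least as wide. The dimmer ones, 1435122_x_at and 1447877_x_at, are of the _x_at type. Without the _x_at and _s_at types the ratio of Dnmt1 was 0.10. Uhrf1, its recruiter, had 4233.6 against 4277.5 on the brighter probe set and 1761.6 against 1440.3 on the other. The ratios were -0.049 and 0.26, and the first became 0.048 after loess, so no direction can be given for Uhrf1.

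Hells, the remodeller, was lower with FGF10 on each of its 3 probe sets. The brightest had 6957.6 on the FGF10 array against 10039.5 on the control array, a ratio of -0.56, or 1.48-fold lower, just inside the 1.5-fold threshold. The others had 2052 against 2301.3 (-0.20) and 475.8 against 523.6 (-0.17). Each reads a different sequence record, and the 3 kept their sign after loess (-0.41, -0.15 and -0.22) and after quantile normalization. Of the 1000 probe sets nearest in brightness to the first, 15 were as low or lower, though these had a median of -0.15. For the other Hells probe sets 254 and 233 of 1000 were as low or lower, so those differences are ordinary for their brightness.

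Genes of DNA replication, with which Dnmt1, Uhrf1 and Hells are usually expressed, stayed within 1.5-fold on the brightest probe set of each. A dimmer kept probe set of Mcm5 was at 1.41 and one of Slbp at -0.85. Of 25 measured, 0 passed 1.5-fold in either direction, and their median ratio was -0.13. Among genes in the brightest 25% of probe sets, where most of them lie, 4.74% passed 1.5-fold in either direction. As deposited 21 of the 25 were below 0, and after loess 15 were, with a median of -0.044. The largest ratios were those of Gins2, a subunit of the replicative helicase, with 2436.3 against 3224.7 (-0.44), Pcna, the sliding clamp, with 18280.5 against 23240.2 (-0.38), and the cyclin gene Ccne1 with 1459.9 against 1799.3 (-0.34).

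The TET genes, whose products begin demethylation, were read mostly by dim probe sets or by ones that disagreed. Tet1 was bright on 1455425_at, with 2699.3 on the FGF10 array against 2463.6 on the control array (0.098). Its probe set 1429448_s_at had 969.3 against 647.6 (0.55, or 1.46-fold higher). The third kept one, 1419896_at, had 456.2 against 567.8 (-0.35). The span of these 3 was 0.90, and 119 of 1316 genes with 3 kept probe sets had one as wide. Where all 3 probe sets were at least as bright as those of Tet1, it was 4 of 325, Tet1 being counted. The mean of the 3 was 0.098 with an SD of 0.45, and the signs did not move with loess or quantile normalization. The Tet1 probe sets name 3 different sequence records between them.

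Tet2 had 1 kept probe set, with 187 on the FGF10 array against 140.8 on the control array, a ratio of 0.38, or 1.30-fold higher. Of the 1000 probe sets nearest in brightness, 223 were as high or higher. Its other probe set had 78.2 against 17.9, below the filter on the mean of the arrays. Tet3 was read by a single probe set at 13.7 against 7, and the fourth Tet1 probe set had 25.1 against 9.6. All 3 of these dim probe sets had the larger signal with FGF10. MAS5 signals of that size may not be above background, so no ratio is read from them and a level for Tet3 is not given.

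Around the enzymes, genes that read or use methylation were mostly level between the arrays. Of 8 methyl-CpG binding genes measured, 1 passed 1.5-fold upward and 0 downward, and their median ratio was 0.11. Over all genes measured 5.41% passed upward, and 1 gene of 8 is too few to set the list apart. The higher one was Zbtb38, a zinc finger protein that binds methylated DNA, with dim signals of 162.2 with FGF10 against 82.9 in the control (0.93), while its other kept probe set was at 0.085. Mbd1, a methyl-CpG binding repressor, had 408.3 against 272.9 (0.55), and Mbd2, another, had 250.5 against 316.6 (-0.37), with its second probe set at 0.21.

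In the list of base excision repair and deamination genes, 0 of 14 measured passed 1.5-fold upward and 3 downward, around a median of -0.0035. The 3 were dim and were kept through their control signal alone, so they had to come out lower. Apobec1, a cytidine deaminase of RNA, had 48.8 against 124.3 (-1.38), Gadd45g, a stress-response gene, had 57.6 against 106.3 (-0.92), and Apobec2 had 63.4 against 106.6 (-0.78). Their FGF10 signals lay under 76.35, and with such signals raised to that value 1 gene of the list was 1.5-fold lower. Dimmer kept probe sets passed 1.5-fold upward for Polb (1.03) and Neil3 (0.78). When a gene took the mean over its kept probe sets, 1 gene of the list was 1.5-fold higher.

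Of 20 measured genes that target the enzymes or act with them, 1 passed 1.5-fold downward and 0 upward, around a median of 0.085. Over all genes measured 4.86% passed downward and 5.41% upward, and 1 gene of 20 does not set the list apart. The lower one was Dppa3, whose product in mouse displaces UHRF1 from chromatin and is also a naive pluripotency marker, with 104.3 on the FGF10 array against 214.3 on the control array (-1.07). Like Dnmt3l it was read by a single probe set. Cxxc5, a CXXC-domain protein that binds unmethylated CpG, had 1796.3 against 1219.6 (0.52), and its second probe set was at 0.93. Pcna belongs to this list too. Dimmer kept probe sets passed 1.5-fold upward for Smchd1 (0.81) and Ogt (1.54) as well.

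Metabolic genes that supply the substrates were within 1.5-fold on the brightest probe set of each. Dimmer kept probe sets lay further out for Shmt2 (-1.13), Mthfd1 (0.64) and Dlst (-0.59). Of 12 measured genes of the methyl donor and folate cycle, 0 passed 1.5-fold in either direction, around a median of -0.16 as deposited and -0.083 after loess. The largest ratios were -0.34 for Tyms (121.2 against 149.9), the thymidylate synthase gene, -0.28 for Mtrr (627.7 against 745) and -0.27 for Mthfd2 (1033.2 against 1217). The other kept probe set of Tyms was at 0.30. Of 14 measured genes that make or use 2-oxoglutarate, or remove its competitors, 0 passed 1.5-fold in either direction, and the median was -0.092. Glud1, glutamate dehydrogenase, was at -0.37 (5468.8 against 6923.9), Idh2, the mitochondrial isocitrate dehydrogenase that makes 2-oxoglutarate, at 0.36 (1168.7 against 891.1), and Idh3a at -0.28 (6581.4 against 7817.4).

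**Figure D4:**
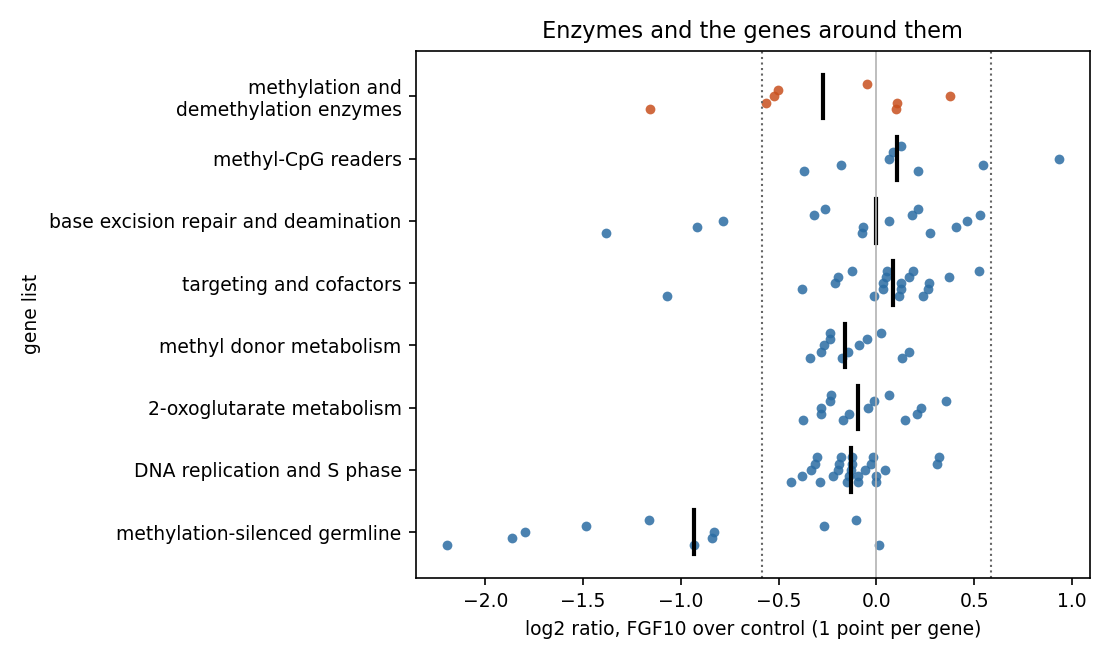
Log2 ratio of FGF10 over control for each measured gene, by list, with the list's median as a black bar and dotted lines at 1.5-fold. The substrate and replication lists lie wholly inside the dotted lines. In the germline list 5 of the points left of them are genes kept through their control signal alone. The black bar of that list includes these genes, so no median is read from it.

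Germline genes, many of them known in mouse to be silenced by promoter methylation, can be read on these arrays only in part. Of 17 listed, 11 had a kept probe set, and 5 of those, Tex12, Taf7l, Dazl, Stk31 and Asz1, were kept through their control signal alone. Their FGF10 signals, from 35.9 to 67.1, lay under 76.35, so they had to come out lower and no count or median over the list is read. The other 6 had both signals above that value. Slc25a31, a mitochondrial nucleotide carrier of the germline, had 162.9 on the FGF10 array against 579.8 on the control array (-1.87). Mael, a gene of transposon silencing, had 244.6 against 668.4 (-1.48), and the RNA helicase gene Ddx4 had 590.3 against 1026.3 (-0.83). These 3 were lower with FGF10 by more than 1.5-fold. The rest were within 1.5-fold: Mov10l1 had 94.7 against 111.4 (-0.27), the meiotic chromosome gene Sycp3 had 2119.5 against 2224.5 (-0.10), and Tdrkh had 427.4 against 414.3 (0.011). These genes were listed with values already known, and methylation of their promoters was not measured.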

How the data were processed

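Gene expression was measured with 1 Affymetrix array per group. The deposited signal intensity values came from MAS5, per the submitters' processing notes, with no version or settings named, and are linear. Trimmed of 2% at each end, both columns have a mean of 500.003, as when arrays are scaled to a shared target. A ratio therefore compares a gene with the rest of the array. No detection calls were used, and the number of arrays limits the precision. For the array values no genome build is given in the sources used here, and the RefSeq promoters are of GRCm38.p6.

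Of 45101 probe sets, 64 chip controls were left out. Of the other 45037, the platform annotation gives 34945 exactly 1 gene, 932 several and 9160 none, and 0 symbols were updated through gene identifiers. Signals were turned into log2 ratios with no offset and centred on the median of the 22524 kept probe sets, 19966 of which have 1 gene. Differences were counted at 1.5-fold, with no test. Quantile and loess (span 0.3) scaling, an offset, raised signals, other filters, the mean over probe sets and probe set types were tried as alternatives. Promoters were matched by symbol.

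The members and gene lists were chosen with earlier results of these data known. Named genes are all members, the 3 genes with the largest absolute ratio in each pathway list with others past 1.5-fold up to 8, and the 2 members of each marker list with the highest FGF10 signal. Pou3f1, the germline genes within 1.5-fold and the genes named only in the closing section were chosen after their values were seen. So were Cer1, Mcm5, Slbp, Shmt2, Mthfd1, Dlst, Polb, Neil3, Smchd1 and Ogt. Analysis used Python 3.11.15, pandas 2.3.3, numpy 2.4.6 and statsmodels 0.14.6.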

Additional observations from a re-analysis of the deposited data

How the results depend on the processing

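With 1 array per group no array can be left out. No paired analysis was possible because each group has 1 sample. Over 10 alternatives, the count of members at least 1.5-fold higher was 0 except without the signal filter, where it was 1 (Tet3). The count lower was 1 (Dnmt3l) except for 0 with the filter at the 75th percentile of signal and 0 without the _x_at and _s_at probe sets, both of which leave Dnmt3l unmeasured. In the other 7 alternatives that give it a ratio, Dnmt3l lay between -1.22 and -1.10. The members' median ran from -0.28 to -0.013, the value for the mean over probe sets, and was -0.093 after quantile and -0.10 after loess normalization. Hells was between -0.56 and -0.31, Dnmt3a between -0.52 and -0.12, the smaller size with the mean over probe sets, and Dnmt3b between -0.50 and -0.22. Uhrf1 was between -0.049 and 0.10. Of 381 recomputed values, including counts and medians of the pathway lists, 359 moved by less than the spread between probe sets (0.267) or, for counts, by at most 1.5 times. Many of them had little or no room to move. The numbers of genes measured cannot change with the scaling, and leaving out the centring shifts every ratio by only 0.034. That share is therefore no measure of robustness. Dim signals limit Tet2 and Tet3.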

Other observations

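Several genes with a known part in DNA methylation, named here after their values were seen, add single readings. Of the 20 measured genes that target the enzymes or act with them, 14 had a ratio above 0 and 6 below, most of them smaller in size than the spread between probe sets of one gene (0.267). Kdm1a, a histone demethylase that DNA methylation in mouse stem cells depends on, had 7136.6 on the FGF10 array against 5394.7 on the control array (0.37), and its second probe set was at 0.34. Its relative Kdm1b had 518.7 against 587.5 (-0.21). Usp7, a deubiquitinase that binds DNMT1 and UHRF1, had 4738.5 against 5047.2 (-0.13), with its 7 kept probe sets between -0.30 and 0.27. Trim28, the corepressor of zinc finger proteins that protect imprints, had 11331.9 against 12674.4 (-0.20). Ogt, the glycosyltransferase that binds TET proteins, was at 0.13 on its brightest probe set, while its 5 kept probe sets ran from -0.043 to 1.54. Uhrf2, a relative of Uhrf1, had 1065.7 against 897.8 (0.21), and its second probe set was at 0.92.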
